A study of Mus musculus with 92 samples.

Results

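The genes that build the mitotic spindle, attach chromosomes to it and time the exit from mitosis were followed in single blastomeres of 8-cell mouse embryos. They were chosen by name, as the Kif, Cenp, Bub1 and Bub3, Aurk, Plk, Mad2l, Anapc and Spc2 genes and the A- and B-type cyclin genes, together with Ndc80, Nuf2, Nusap1, Tpx2, Incenp, Birc5, Top2a, Cdc20 and Cdk1. Of the 7886 genes counted, 83 fit, and all 83 entered the tests. The choice went by name, but it was made with earlier results of these data known. It also took in genes whose products act elsewhere. Among these are Aurkaip1, which codes for a mitochondrial protein, Cenpj, a centriole gene, and Kif1bp, whose product binds kinesins. Kinesins that carry cargo, such as those of Kif5b and Kif1b, were included too. Kifc1 and Kifc5b are near-identical copies, so the reads of each are uncertain.

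The embryos were wild-type C57BL/6N and had been microinjected as zygotes with a mimic of let-7d (group Let7d), a mimic of let-7e (group Let7e), mi699a-5p, as the labels spell it, or with a negative control (NC). They were kept to the 8-cell stage, and single blastomeres were sequenced by Smart-seq2, which amplifies full-length cDNA of one cell without molecular identifiers, so reads include amplification copies. The labels give a mouse id to each cell, and it was taken as the replicate. Let7d held 18 cells of 3 mouse ids, Let7e 20 cells of 4, mi699a-5p 21 cells of 4 and NC 22 cells of 3. All groups share the genotype, the strain and the term IVF (in vitro fertilisation) in the sample titles. The labels name neither the injected dose nor whether a mouse id is a single embryo. In 3 of the 14 mouse ids some cells carried Xist and others Y-linked transcripts, so a mouse id need not be a single embryo. At a threshold of 10 CPM, 3 single cells carried both and 1 carried neither, so these transcripts do not sort every cell. The labels name no batch, so a batch that went with the injected material cannot be told apart from it.

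As cells enter mitosis, cyclin A2 and cyclin B1 activate Cdk1, and the Aurora and Polo-like kinases drive the building of the spindle. Centromere proteins lay down the kinetochore, kinesins move chromosomes and slide microtubules, and the Bub and Mad2 checkpoint proteins hold back Cdc20, which activates the anaphase-promoting complex to destroy the cyclins. In somatic cells transcripts of many of these genes peak in G2 and mitosis. Early mouse embryos cleave asynchronously, and the oocyte supplies cyclin B1 and other mitotic transcripts as maternal stores, so both stored and newly made RNA may be counted at the 8-cell stage.

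The injected let-7 microRNAs are shown to locate the seed, the stretch that pairs with target transcripts and decides which of the 83 genes carry a match. Capitals mark bases 2 to 8 of the mature strand, from RefSeq on GRCm38.p6.
mmu-let-7d-5p: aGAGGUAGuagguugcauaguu
mmu-let-7e-5p: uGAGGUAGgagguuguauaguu
The seeds are the same, and the mature strands differ at 3 positions counted from the 5′ end (A1U, U9G and C16U, let-7d base first). No RefSeq entry was matched to the name mi699a-5p.

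A cell carried 1575609 to 4950404 reads (median 2736612), and the counts of a mouse id, summed over 2 to 8 cells, came to 6329464 to 24037593 reads. Of 10 markers of 8-cell blastomeres, 8 were in the file, among them Pou5f1 at a mean of 178 CPM (counts scaled to a common library total) and Dppa3 at 4972 CPM. Of 10 oocyte markers 5 were in the file, of 10 cumulus or granulosa markers 0 and of 8 sperm markers 0, in a table deposited after a filter on CPM. There were 2 cells, 1 of mi699a-5p replicate 2 and 1 of mi699a-5p replicate 1, that stood apart from the rest on the leading component of variation described further on. Ribosomal protein genes took 14.2% and 14.6% of their reads, against a median of 4.32% over all cells. The correlations of the highest and lowest gene pairs are given with and without them.

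The 83 genes together took 1.46% ± 0.04 of reads in Let7d (SD, n = 3), 1.32% ± 0.14 in Let7e (n = 4), 1.34% ± 0.15 in mi699a-5p (n = 4) and 1.22% ± 0.23 in NC (n = 3). By mouse id the share was 1.496, 1.431 and 1.442% in Let7d, 1.14, 1.28, 1.38 and 1.47% in Let7e, 1.18, 1.29, 1.35 and 1.54% in mi699a-5p, and 1.120, 1.484 and 1.068% in NC. The groups overlapped, since NC replicate 2 lay within the range of the injected groups. Ribosomal RNA and mitochondrially encoded genes take differing shares of reads. Without these 17 genes in the total the share was 1.59% in Let7d, 1.51% in Let7e, 1.55% in mi699a-5p and 1.47% in NC. Between cells the share ran from 0.674 to 1.75% (median 1.32%), and reads for 38 of the 83 genes were found in every cell.

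Per length of exon, the most abundant transcript was that of Cdc20, at 631 ± 146 CPM per kb of exon (SD over 14 mouse ids). It was followed by Mad2l1bp, whose product takes the checkpoint protein Mad2 off its partners, at 490 ± 146. The cyclin B1 gene Ccnb1 stood at 309 ± 61.7, the Aurora A kinase gene Aurka at 302 ± 68.6, and the cyclin A2 gene Ccna2 at 243 ± 29.6 on the same scale. Cdc20 and Mad2l1bp differed by less than the SD of each, as did Ccnb1 and Aurka. Mad2l1bp stood above Ccnb1 by more than the SD of each, and Aurka above Ccna2 by less than the SD of Aurka but more than that of Ccna2. Next came the chromokinesin gene Kif22 at 122 ± 27.3, the Polo-like kinase gene Plk1 at 99.6 ± 31.0, Ccnb2 at 94.85 ± 16.7, the survivin gene Birc5 at 79.99 ± 23.1 and Cdk1 at 77.1 ± 17.6.

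Levels within a role were graded in some roles and far apart in others. Aurka stood far above Aurkb, at 18.4 ± 8.44, and Aurkc, the oocyte form, at 24.1 ± 8.58. Among kinetochore genes the motor gene Cenpe was highest at 71.6 ± 14.8, followed by Cenpm at 44.5 ± 13.9, Cenpa at 41.8 ± 15.8 and Cenps at 41.6 ± 9.28, and Ndc80, which codes for the microtubule-binding arm of the kinetochore, stood at 13.6 ± 2.84. Its partner gene Nuf2 stood at 2.14 ± 1.12, in CPM per kb. Kifc3 was highest among the other kinesins at 26.9 ± 15.4. The lowest of all was the neuronal kinesin gene Kif5c at 0.983 ± 0.703, with reads in 41 of 81 cells. The range over the 83 genes thus spanned from less than 1 to 631 CPM per kb.

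**Figure D1:**
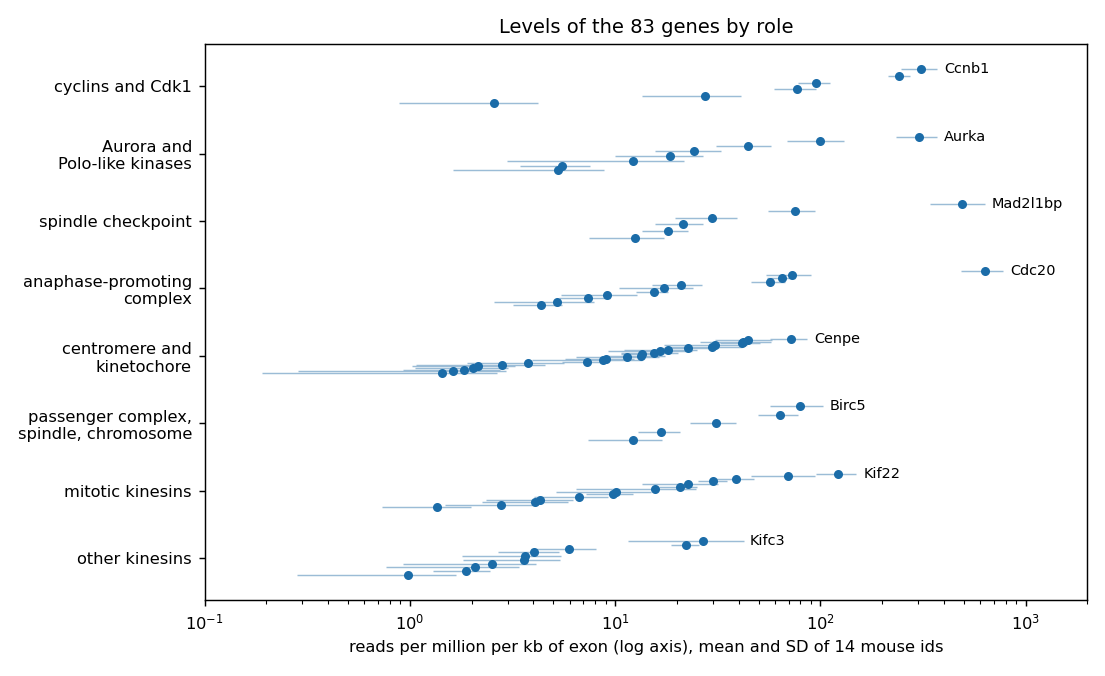
Mean level of each of the 83 genes in CPM per kb of exon (x axis, log scale) by role (y axis), with the SD of 14 mouse ids as bars and the highest gene of each role named. Cdc20 at 631 is the highest and Kif5c at 0.983 the lowest.

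Each injected group was then compared with NC to ask whether mitotic transcripts differ between the treatment labels. Summed counts per mouse id were fitted with edgeR's quasi-likelihood test, adjusted by Benjamini-Hochberg over all 7886 genes. No gene of the 83 passed an adjusted p of 0.05 in any comparison. The share of all genes called was 0.0127% (1 gene) in Let7d against NC, 0% in Let7e against NC, 0% in mi699a-5p against NC and 0% for any difference among the 4 groups. DESeq2 also called 0 of the 83 in each, and of all genes it called 3 in Let7d, 0 in Let7e, 6 in mi699a-5p and 15 for any difference. Its smallest adjusted p among them were 0.217 in Let7d, 0.602 in Let7e, 0.340 in mi699a-5p and 0.290 for any difference. The same NC mouse ids serve all 3 comparisons, so a gene low or high in NC moves all 3 together. The labels do not say that mouse ids were separate cultures, so p-values measure only the spread between them, which may be technical.

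At an unadjusted p under 0.05, Let7d had 5 of the 83 genes higher and 0 lower, against 2.65% and 2.04% of all genes. Let7e had 1 higher and 0 lower, against 2.33% and 1.69% of all genes. In mi699a-5p 4 were higher and 3 lower, against 3.2% and 2.31% of all genes. The test of any difference had 4 of the 83 (4.82%), against 5.59% of all genes (DESeq2 had 5, 3, 7 and 7 in these 4 tests). The median log2 fold change of the 83 for Let7d was 0.06, for Let7e 0.11 and for mi699a-5p 0.11, and over all genes it was 0.01, 0.02 and 0.04. Fold changes above 0 were found for 49 of 83 in Let7d (all genes 51%), 51 of 83 in Let7e (all genes 51.9%) and 51 of 83 in mi699a-5p (all genes 54.1%).

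**Figure D2:**
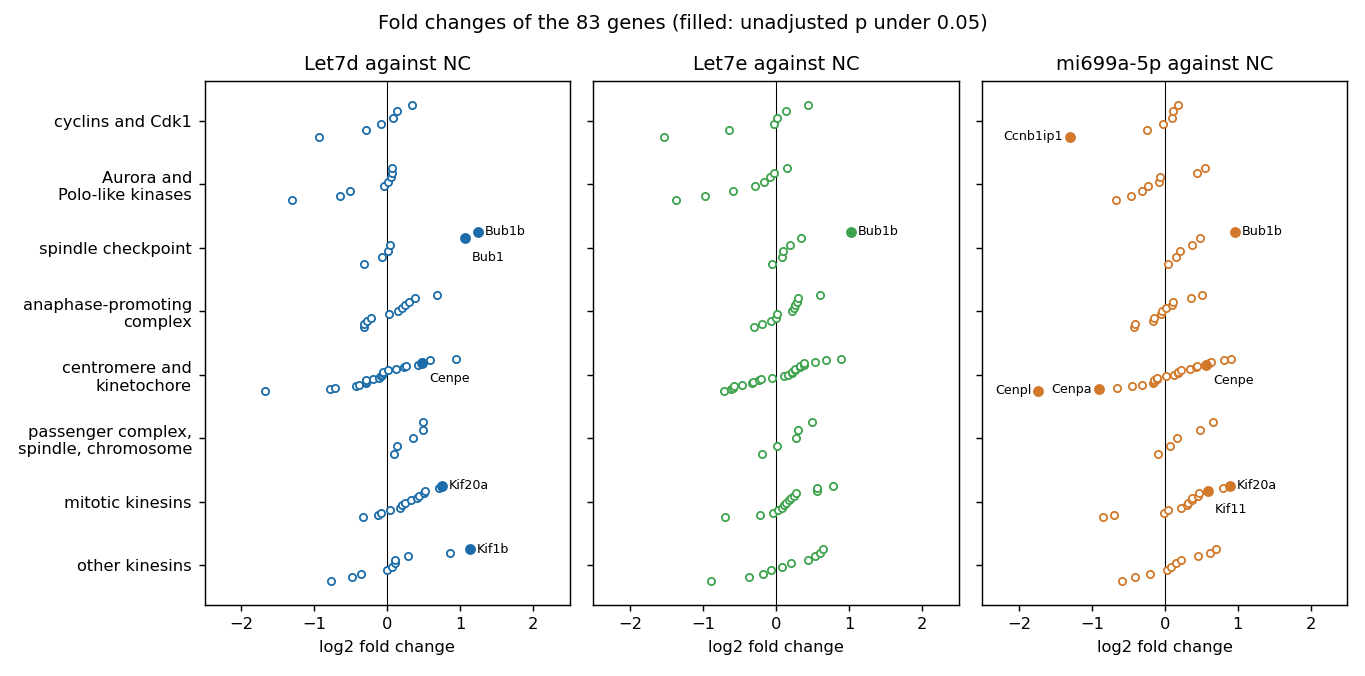
Log2 fold change against NC (x axis) of the 83 genes by role (y axis) in the 3 comparisons. Filled points have an unadjusted p under 0.05 and are named, 5 for Let7d, 1 for Let7e and 7 for mi699a-5p, and none passed adjustment.

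Of the cyclins and Cdk1, none reached an unadjusted p of 0.05 in Let7d or Let7e. Ccnb1 averaged 1475 ± 405 CPM in Let7e and 1091 ± 141 CPM in NC (SD, n = 4 and 3), a log2 fold change of 0.43 ± 0.21 (SE, edgeR adjusted p = 0.999). In mi699a-5p Ccnb1ip1, grouped here by its name, codes for a ubiquitin ligase known for its role in meiotic crossing over rather than in mitosis. Ccnb1ip1 had 22.9, 35.7, 22.8 and 39.5 CPM in mi699a-5p, against 76.6, 41.2 and 106 CPM in NC. The groups did not overlap, and the log2 fold change was -1.30 ± 0.44 (SE, edgeR adjusted p = 0.858). Cdk1 had a log2 fold change of -0.08 for Let7d, 0.02 for Let7e and -0.25 for mi699a-5p.

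The checkpoint kinase genes held the smallest p in Let7d. Bub1 (chromosome 2 of GRCm38, 127801122 to 127831865), whose kinase recruits other checkpoint proteins to kinetochores, had 148, 220 and 200 CPM in Let7d, against 55.8, 133 and 81.7 CPM in NC. The lowest Let7d value exceeded the highest in NC, and the log2 fold change was 1.07 ± 0.30 (SE, edgeR p = 0.0020, adjusted p = 0.886). In Let7e Bub1 had 93.0, 123, 118 and 122 CPM and in mi699a-5p 101, 124, 134 and 143 CPM, and both groups overlapped NC. Bub1b (chromosome 2, 118598211 to 118641591) codes for BubR1, a part of the complex that inhibits Cdc20. It had 103, 40.5 and 59.8 CPM in Let7d, 38.9, 61.7, 79.4 and 53.9 CPM in Let7e, 43.2, 52.1, 67.9 and 59.1 CPM in mi699a-5p, and 26.5, 32.0 and 27.1 CPM in NC. The lowest injected value exceeded the highest in NC, in comparisons that share the NC samples.

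For Bub1b the log2 fold changes were 1.25 ± 0.37 for Let7d, 1.03 ± 0.35 for Let7e and 0.96 ± 0.35 for mi699a-5p (SE, edgeR adjusted p = 0.886, 0.999 and 0.858). It was at these levels a low transcript, with reads in 75 of 81 cells. Bub3, Mad2l1, Mad2l2 and Mad2l1bp, the other 4 of this role, had no unadjusted p under 0.05.

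Genes whose groups did not overlap were counted beside the share over all genes. In Let7d 5 of 83 lay above NC in every mouse id (all genes 6%) and 3 below (all genes 5.96%). In Let7e 2 lay above (all genes 2.78%) and 0 below (all genes 2.84%). In mi699a-5p 4 lay above (all genes 4.51%) and 5 below (all genes 3.87%). Of the anaphase-promoting complex, Anapc5 was below NC in every mouse id of Let7d and of mi699a-5p, and Anapc16 in mi699a-5p.

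Among centromere and kinetochore genes, Cenpa codes for the histone variant that marks centromeres (chromosome 5, 30666777 to 30674830). Cenpa had 163, 186, 177 and 164 CPM in mi699a-5p, against 278, 259 and 434 CPM in NC. The highest mi699a-5p value was under the lowest in NC, with a log2 fold change of -0.91 ± 0.30 (SE, edgeR p = 0.0072, adjusted p = 0.858). In Let7d it had 226, 350 and 325 CPM and in Let7e 362, 191, 118 and 193 CPM, so both overlapped NC. Cenpl, a member of the constitutive centromere network, had 9.79, 0.985, 3.696 and 11.2 CPM in mi699a-5p, against 21.6, 19.0 and 23.4 CPM in NC. Its log2 fold change was -1.73 ± 0.75 (SE, edgeR adjusted p = 0.867), and it was among the 16 genes with a mean below 20 CPM over cells.

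Cenpe codes for the kinesin that carries chromosomes to the spindle equator (chromosome 3, 135212537 to 135273611). It had 737, 646 and 642 CPM in Let7d, 686, 504, 618 and 499 CPM in Let7e, 825, 582, 708 and 740 CPM in mi699a-5p, and 483, 625 and 339 CPM in NC. The Let7d mouse ids lay above NC without overlap and the other groups overlapped NC. The log2 fold changes were 0.48 ± 0.23 in Let7d and 0.57 ± 0.21 in mi699a-5p (SE, edgeR adjusted p = 1 and 0.858). Across the 23 genes of this role, 9 fold changes were above 0 for Let7d, 13 for Let7e and 13 for mi699a-5p.

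The mitotic kinesins had 11 of 14 fold changes above 0 in each injected group, with medians of 0.29 for Let7d, 0.16 for Let7e and 0.34 for mi699a-5p on the log2 scale. All 3 counts rest on the same NC mouse ids. Kif20a, whose product works in the central spindle and cytokinesis, had 320, 291 and 391 CPM in Let7d, 141, 329, 407 and 293 CPM in Let7e, 283, 255, 464 and 474 CPM in mi699a-5p, and 173, 226 and 196 CPM in NC. Let7d and mi699a-5p lay above NC in every mouse id, and Let7e did not, because its replicate 1 was lowest of all. The log2 fold changes were 0.75 ± 0.32 in Let7d and 0.90 ± 0.31 in mi699a-5p (SE, edgeR adjusted p = 0.993 and 0.858).

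Kif11 codes for the motor that pushes spindle poles apart (chromosome 19, 37376403 to 37421859). It had 154, 185, 187 and 223 CPM in mi699a-5p, against 110, 132 and 132 CPM in NC, with no overlap. Its log2 fold change was 0.59 ± 0.23 (SE, edgeR adjusted p = 0.858). Among the other kinesins, Kif1b, a transporter of vesicles and mitochondria, had 86.0, 127 and 50.1 CPM in Let7d, against 36.0, 60.5 and 23.2 CPM in NC, and the groups overlapped. The fold changes of Bub1, Bub1b, Kif20a, Cenpe, Kif11, Cenpa, Ccnb1ip1 and Cenpl named here kept their sign under all 23 alternatives. For Cenpl there were 22, since a filter at 20 CPM removed it. Leaving out a mouse id of a group outside the comparison moves a fold change little, so not all alternatives challenge the sign. The genes were also picked by their p in these data. Sizes did change. Without NC replicate 3 Cenpe had 0.28 in Let7d and 0.37 in mi699a-5p, without Let7d replicate 1 Bub1b had 0.81 in Let7d, and without Let7e replicate 3 Kif20a had 0.36 in Let7e. With limma on the mean log2 CPM of cells, Bub1b had 0.68 for Let7d, 0.51 for Let7e and 0.55 for mi699a-5p, and in mi699a-5p Kif20a had 0.56 and Cenpl -0.83.

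The rest of the 8 smallest p-values per comparison were not past an unadjusted p of 0.05. In Let7d these were Tpx2, a spindle assembly gene, at 0.50 ± 0.25, the topoisomerase gene Top2a at 0.49 ± 0.25 and Aurkaip1 at -0.64 ± 0.34 on the log2 scale. In Let7e these included the microtubule depolymerase gene Kif18b at 0.78 ± 0.39, Cenpt, whose product links centromere and kinetochore, at 0.54 ± 0.36, Cenpn, whose product reads the Cenpa nucleosome, at -0.72 ± 0.48, and Kif13b, a cargo kinesin gene, at -0.89 ± 0.58. In mi699a-5p Tpx2 had 0.48 ± 0.23. Kif13b rests on NC replicate 3, at 74.5 CPM against 18.7 and 21.2 CPM in the other NC mouse ids, and without it the fold change was 0.04.

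**Figure D3:**
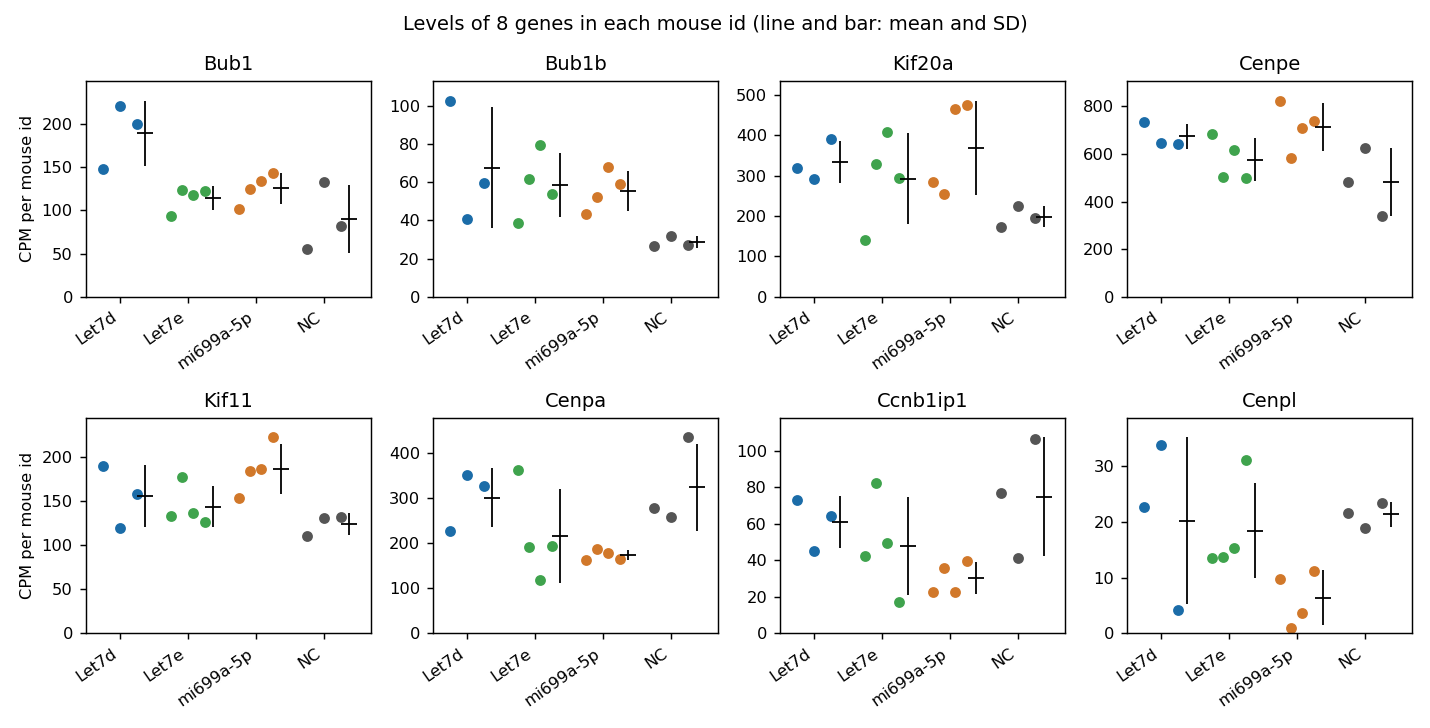
Level in CPM (y axis) of 8 genes in each mouse id (points) of Let7d, Let7e, mi699a-5p and NC (x axis), with the group mean and SD as a line and bar. Bub1b lies at 38.9 CPM or above in all injected mouse ids and at 32.0 CPM or below in NC.

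The kinases Aurka, Aurkb, Aurkc, Plk1 and Plk4, and the passenger complex genes Birc5 and Incenp, had no unadjusted p under 0.05 in any comparison. Aurka averaged 812 ± 57.9 CPM in Let7d, 756 ± 214 CPM in Let7e, 732 ± 221 CPM in mi699a-5p and 772 ± 212 CPM in NC (SD, n = 3, 4, 4 and 3). Cdc20 averaged 1340 ± 257 CPM in Let7d, 1107 ± 291 CPM in Let7e, 1139 ± 176 CPM in mi699a-5p and 1166 ± 437 CPM in NC. For both genes the differences were smaller than the SD of NC.

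Of 91 further mitosis genes, such as those of cohesin, condensin and cytokinesis, 84 were in the file. In Let7d 48 of the 84 lay above 0 (all genes 51%). At an unadjusted p under 0.05, 6 were higher and 0 lower (all genes 2.65% and 2.04%). The smallest p were those of the cytokinesis genes Ect2 at 0.94 ± 0.30, Prc1 at 0.95 ± 0.31 and Anln at 0.78 ± 0.26 on the log2 scale. In Let7e 44 lay above 0 (all genes 51.9%), with 3 higher and 2 lower (all genes 2.33% and 1.69%). These were led by the proliferation marker gene Mki67 (1.19 ± 0.39), the kinetochore gene Mis12 (-1.42 ± 0.50) and Prc1 (0.71 ± 0.29). In mi699a-5p 49 lay above 0 (all genes 54.1%), with 5 higher and 0 lower (all genes 3.2% and 2.31%). These were led by Prc1 (0.82 ± 0.30), Anln (0.63 ± 0.24) and Mki67 (0.97 ± 0.38). The medians were 0.05 for Let7d, 0.01 for Let7e and 0.14 for mi699a-5p, and by edgeR 0 of the 84 passed adjustment in each comparison. Of the 53 S phase genes in the file 35, 28 and 33 lay above 0 for Let7d, for Let7e and for mi699a-5p, and by edgeR 0 passed adjustment. Beside the shares of all genes given above, 3, 3 and 5 of them were higher and 0, 1 and 1 lower at an unadjusted p under 0.05. They were led in Let7d by the DNA polymerase gene Pold1 (1.28 ± 0.43), in Let7e by the replication gene Mcm10 (0.96 ± 0.30) and in mi699a-5p by the kinase gene Cdk2 (0.70 ± 0.21).

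In Let7d all 7 mitochondrially encoded genes in the file had fold changes below 0 (median -0.75 on the log2 scale), against 1 of 7 in Let7e and 4 of 7 in mi699a-5p. Of 18 genes of the p53 response 14 were below 0 in Let7d (median -0.67), 16 in Let7e (median -0.32) and 10 in mi699a-5p (median -0.04). Of all 7886 genes, 3865 were below 0 for Let7d, 3790 for Let7e and 3619 for mi699a-5p. By edgeR 0 genes of both lists passed adjustment. At an unadjusted p under 0.05 Let7d had 7 and 4 lower, against 2.04% of all genes. The other groups had 0 lower, against 1.69% of all genes for Let7e and 2.31% for mi699a-5p. The part of both lists in the values of the mitotic genes was not tested.

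A let-7 seed match was sought in the 3′ UTR of 1 transcript per gene, that with the longest coding sequence. A match was found for 8 of the 83 genes (9.64%), against 15.1% of 7596 genes in the file with a 3′ UTR model. The matches were counted as 8mers, which pair with bases 2 to 8 and face an A opposite base 1, or as shorter 7mers of these. Cenpw, a kinetochore gene of the centromere histone-fold complex, held the only 8mer, shown with its flanks and the match in capitals.
Cenpw: caattatagaaCTACCTCAgtaccacagag
Birc5, Kif11, Kif9 and Nusap1 held a match to bases 2 to 8, and Cdk1, Kif14 and Mad2l1 a match to bases 2 to 7 with the A. A match is not evidence of repression.

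Cenpw had 42.5, 39.9 and 20.5 CPM in Let7d, 62.4, 32.3, 46.7 and 58.5 CPM in Let7e, 110, 42.9, 41.4 and 39.4 CPM in mi699a-5p, and 48.9, 56.7 and 33.0 CPM in NC. The groups overlapped, and the highest value was that of mi699a-5p replicate 1. Its log2 fold change was -0.43 ± 0.44 in Let7d and 0.11 ± 0.41 in Let7e, neither larger than its SE. Among the 8 genes with a match, 5 were below 0 in Let7d, with a median of -0.20, and 3 were below 0 in Let7e, with a median of 0.07. In mi699a-5p, for which no seed was matched, 2 were below 0. Over all genes with a match the median was 0.05 in Let7d and 0.02 in Let7e, and over those without one it was 0.00 and 0.02.

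Co-variation between single blastomeres was measured on log2(CPM + 10), with each gene centred on the mean of its mouse id so that differences between mouse ids and groups drop out. Genes with a mean of at least 20 CPM were used, 67 of the 83, and the 16 below that level were not. Cells of a mouse id share a source, so correlations are descriptions without p-values. Over 2211 pairs of these genes the median r was 0.03 (quartiles -0.11 and 0.17), and 9.95% of pairs were over 0.3. Over all pairs of 5727 genes the median was 0.02 and 5.90% were over 0.3. Without the 2 cells that stood apart the shares over 0.3 were 5.88% for these genes and 4.05% for all pairs, and the medians 0.02 and 0.01. Within single roles the mitotic kinesins had the highest median, 0.22 over 55 pairs. With the shared component described below removed it was 0.04, and the cyclins and Cdk1 were then highest at 0.13 over 10 pairs.

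A few pairs stood out. Cdc20 and Ccnb1 had r = 0.72, Ccna2 and Ccnb1 0.72, and Aurka and Ccna2 0.71. Cdc20 and Kif20a had 0.70, Ccna2 and Cdc20 0.68, Ccnb1 and Kif20a 0.67, and Aurka and Cdc20 0.66. The 10 highest pairs were completed by Ccna2 and Anapc5 (0.64), Anapc5 and Kif20a (0.64), and Ccna2 and Kif20a (0.63). The genes in these pairs are the cyclin genes Ccna2 and Ccnb1, Aurka, Cdc20, Anapc5 of the anaphase-promoting complex, and the kinesin gene Kif20a, which is in 4 of the 10. Without the 2 cells that stood apart these 10 pairs were lower, at 0.38 (Ccna2 and Anapc5) to 0.57 (Aurka and Ccna2), with Cdc20 and Kif20a at 0.56.

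Other genes went the opposite way. The lowest pairs were Cenpw and Kif20a (r = -0.74), Kif23 and Cenpw (-0.59), Cenpm and Kif20a (-0.59), Anapc5 and Cenpw (-0.59), and Cenpw and Ccnb1 (-0.59). Without the 2 cells these were -0.65, -0.51, -0.60, -0.40 and -0.40 in the same order. Kif23 codes for a motor of cytokinesis and Cenpm for a kinetochore protein. Against the mean of the other members, r was highest for Kif22 (0.67), Kif20b (0.61), the cargo kinesin gene Kif5b (0.58), Cdc20 (0.52), Ccnb1 (0.51), Kif23 (0.47), Kif20a (0.44), Ccna2 (0.44), Aurka (0.42) and Anapc7 (0.41). It was lowest for Cenpw (-0.40), Cenpm (-0.33), Birc5 (-0.31), Ccnb2 (-0.26) and Spc24 (-0.25).

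These blocks followed a component shared with genes outside the 83. The first principal component of the genes other than the 83 held 14.7% of their variance between cells, and the first component of the 67 genes, 19.2% of theirs, had an absolute r of 0.97 with it. The shared component had r = -0.94 with the mean of 85 ribosomal protein genes. These were among the genes it was computed from, and its sign was set to be negative with them. The component had r = 0.03 with the log2 total of a cell and 0.23 with its number of detected genes. Of the 67 genes, 24 had r over 0.3 with it and 14 under -0.3 (35.8% and 20.9%), against 30.7% and 15.3% of other genes. Kif20a (0.88), Anapc5 (0.76) and Cdc20 (0.71) lay at the positive end and Cenpw (-0.74), Cenpm (-0.64) and Birc5 (-0.63) at the negative end. These values, and those of coding length below, include the 2 cells that stood apart, at -4.35 and -3.40 on the component. Removing it moved the share of member pairs over 0.3 from 23.7 to 14.9% within mi699a-5p (all pairs 22.8 to 15.5%). Within Let7d that share moved from 17.2 to 17.0% (all pairs 14.27 to 14.26%). Within Let7e it moved from 20.1 to 19.0% (all pairs 16.8 to 15.3%). Within NC it moved from 15.2 to 12.7% (all pairs 14.23 to 12.15%).

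Coding length went with the position along this component. The 24 genes at the Kif20a end had a median coding length of 2487 bases, and the 14 at the Cenpw end 512 bases. Over genes, log2 coding length had r = 0.64 with the position among the 67 and 0.50 among 5508 other genes, and genes are not independent replicates. The part of length, amplification or RNA quality in these correlations was not tested.

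With the component removed, a choice made after seeing the data, 2.49% of the 2211 pairs were over 0.3 and 2.02% of all pairs. The median r was 0.02 for the 67 genes and 0.01 for all genes. A set of 4 genes, taken from the highest pairs after their values were seen, had all 6 of their mutual correlations reduced, to between 0.36 and 0.58 from 0.61 to 0.72 as measured. With the component removed they were Aurka and Ccna2 (0.58), Aurka and Cdc20 (0.50), Cdc20 and Ccnb1 (0.48), Ccna2 and Ccnb1 (0.48), Aurka and Ccnb1 (0.42), and Ccna2 and Cdc20 (0.36). By comparison, Kif20a dropped to 0.23 with Cdc20 and 0.03 with Ccna2, and Anapc5 and Kif20a gave -0.12. Among the 10 highest pairs with the component removed were Anapc15 and Kif22 (0.54, against 0.26 as measured) and Cenps and Mad2l1bp (0.48, against 0.45 as measured).

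**Figure D4:**
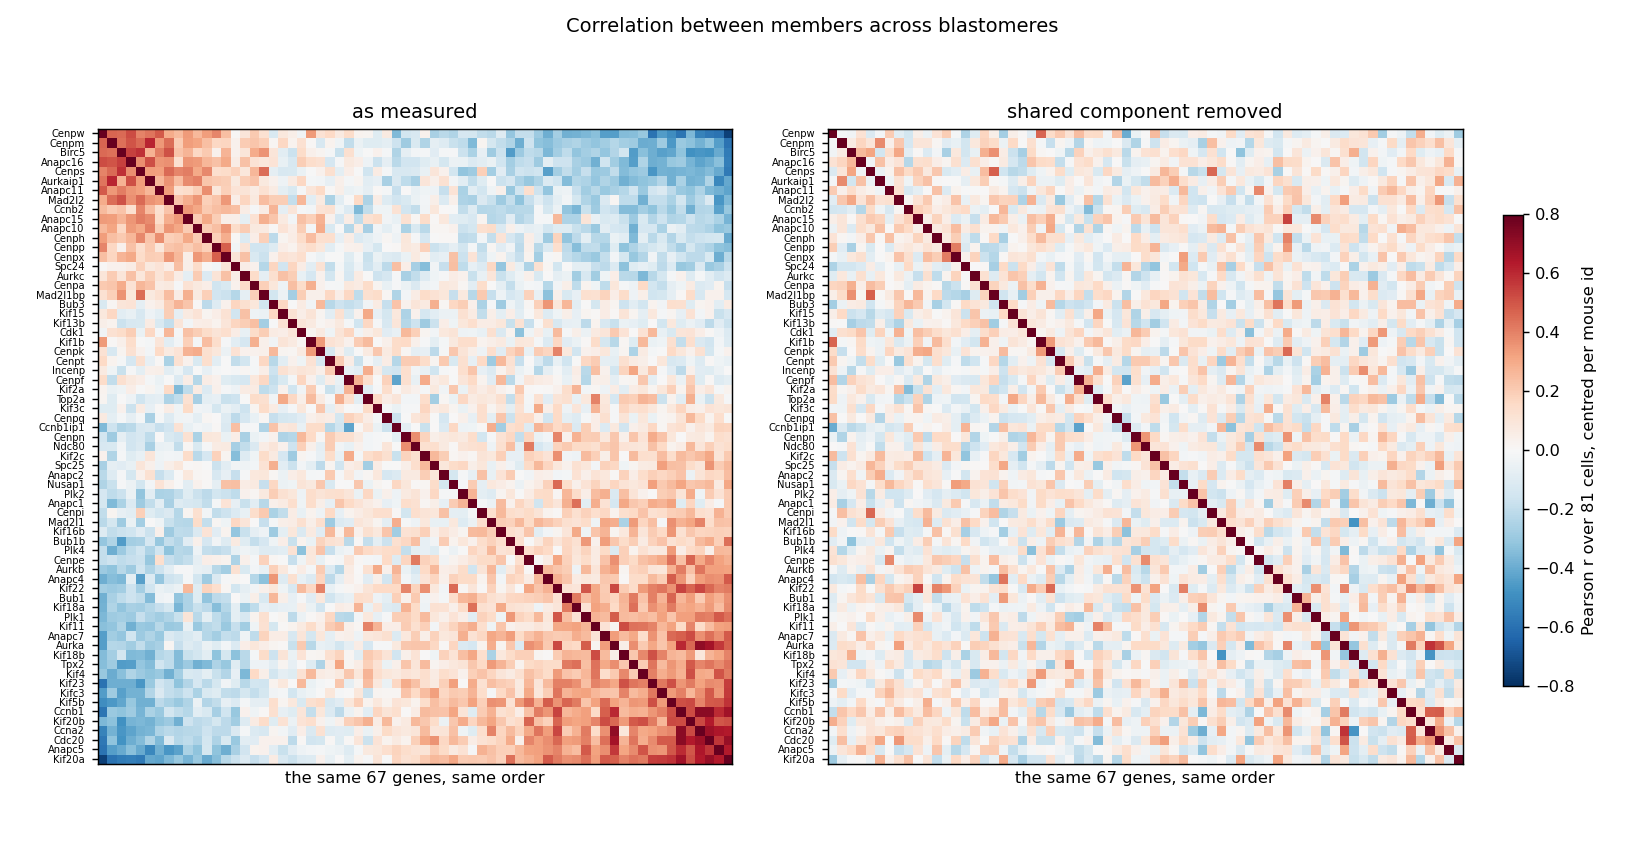
Pearson r over 81 blastomeres (colour, red positive and blue negative) between 67 genes, ordered in both panels by their r with the shared component, from Cenpw to Kif20a. As measured (left) 9.95% of pairs exceed 0.3 (5.88% without the 2 cells that stood apart), and with the component removed (right) 2.49% do.

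The 4 genes were chosen for high r over these same cells, so their r within groups is a description and no separate support. As measured, the 6 pairs ran from 0.15 to 0.57 in Let7d, 0.14 to 0.61 in Let7e, 0.73 to 0.93 in mi699a-5p and 0.18 to 0.59 in NC. With the component removed they ran from 0.28 to 0.62 in Let7d, 0.26 to 0.54 in Let7e, 0.18 to 0.63 in mi699a-5p and 0.35 to 0.62 in NC. The difference between groups was not tested, and mi699a-5p holds both cells that stood apart. Without these 2 cells its pairs ran from 0.36 to 0.85, and over all cells Cdc20 and Ccnb1 gave 0.55, Aurka and Ccna2 0.57 and Aurka and Cdc20 0.49.

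In the cell of mi699a-5p replicate 2 that stood apart, Ccnb1 was at 244 CPM (the other cells of the mouse id averaged 1279), Cdc20 at 163 CPM (1186), Kif20a at 3.03 CPM (281) and Cenpw at 148 CPM (29.8). In that of replicate 1 Ccnb1 was at 233 CPM (1137), Cdc20 at 231 CPM (931), Kif20a at 1.24 CPM (293) and Cenpw at 318 CPM (74.2). These cells carried 2312759 and 1608320 reads and 6704 and 6367 detected genes. Low Ccnb1 and high Cenpw levels came together in both cells. The cells were picked by the component, with which Ccnb1 had r = 0.66 and Cenpw -0.74, so this is a description and no separate support.

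Cell levels ranged widely in each group. Ccnb1 ran from 863 to 2152 CPM (median 1370) in Let7d, from 656 to 2055 (median 1409) in Let7e, from 233 to 2216 (median 1233) in mi699a-5p and from 404 to 1598 (median 1069) in NC. Kif20a ran from 124 to 585 CPM (median 353) in Let7d, from 8.08 to 587 (median 271) in Let7e, from 1.24 to 620 (median 327) in mi699a-5p and from 20.0 to 404 (median 207) in NC. The cells of the 4 groups overlapped for both genes.

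**Figure D5:**
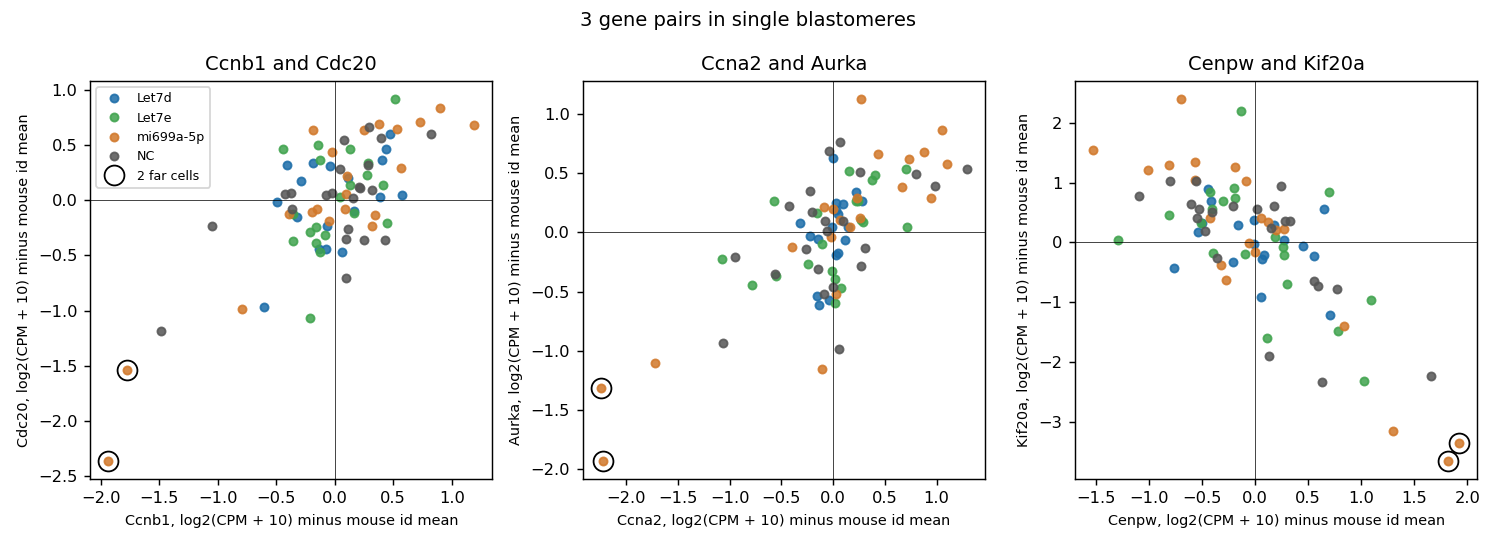
Level of 1 gene against another in 81 single blastomeres, each axis as log2(CPM + 10) minus the mean of the mouse id, coloured by group, with the 2 cells that stood apart ringed. Ccnb1 with Cdc20 (r = 0.72) and Ccna2 with Aurka (0.71) slope upwards and Cenpw with Kif20a (-0.74) downwards.

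Other genes were set beside the mean of Aurka, Ccna2, Ccnb1 and Cdc20, with the component removed. Over 5723 genes the median r was 0.02 and the 99th percentile 0.54. Of the further mitosis genes, Kpna2, which codes for an importin, had 0.68 and the passenger complex gene Cdca8 0.58, while the mean of 79 such genes had -0.02. The mean of 50 S phase genes had 0.40, that of 8 markers of 8-cell blastomeres 0.46, of 6 maternal oocyte transcripts -0.09, of 16 genes of the p53 response -0.19 and of 7 mitochondrially encoded genes -0.31. The genes nearest of all were Cnbp (0.74), Rpl4 (0.72) and Impdh2 (0.72), which are not mitotic genes. Outside the 4, the highest of the 67 genes was Kif22 at 0.44. As measured, without removing the component, the mean of the 79 further mitosis genes had 0.58, Kpna2 0.86 and Cdca8 0.55. The means of the other lists then had 0.73, 0.41, -0.42, 0.03 and -0.08, in the order above.

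Promoters of Ccnb1, Cdc20 and Aurka are shown (that of Ccna2 is not used here) because cell cycle genes often carry a CCAAT box, bound by the factor NF-Y, and a cell cycle homology region (CHR), bound by the MuvB complex. The windows run from 250 bases before the start site to 50 after, on GRCm38.p6 from RefSeq, on the strand of the gene. Capitals mark CCAAT and its reverse complement ATTGG, and TTTGAA and its reverse complement TTCAAA, which do not overlap each other.
Ccnb1 (chr13:100786437-100786736, minus strand): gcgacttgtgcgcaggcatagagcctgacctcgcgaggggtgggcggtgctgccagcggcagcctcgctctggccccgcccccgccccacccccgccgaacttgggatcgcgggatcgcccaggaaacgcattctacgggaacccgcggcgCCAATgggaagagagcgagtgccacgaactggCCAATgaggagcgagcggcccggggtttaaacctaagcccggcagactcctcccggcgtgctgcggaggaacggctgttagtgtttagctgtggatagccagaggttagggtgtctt
Cdc20 (chr4:118437294-118437593, minus strand): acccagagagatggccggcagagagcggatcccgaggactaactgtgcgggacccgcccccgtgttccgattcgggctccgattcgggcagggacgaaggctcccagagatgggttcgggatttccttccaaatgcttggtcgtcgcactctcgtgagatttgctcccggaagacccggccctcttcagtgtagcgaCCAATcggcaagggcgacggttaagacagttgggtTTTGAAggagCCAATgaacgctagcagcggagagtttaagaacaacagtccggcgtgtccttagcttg
Aurka (chr2:172370521-172370820, minus strand): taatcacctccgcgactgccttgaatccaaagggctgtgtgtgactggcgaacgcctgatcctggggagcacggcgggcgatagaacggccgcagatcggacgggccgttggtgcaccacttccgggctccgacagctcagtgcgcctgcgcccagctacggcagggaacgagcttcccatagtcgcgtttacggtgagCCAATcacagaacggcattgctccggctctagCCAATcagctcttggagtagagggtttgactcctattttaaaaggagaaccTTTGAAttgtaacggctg
Each window held 2 CCAAT boxes, and those of Cdc20 and Aurka held 1 TTTGAA each. No match says only that these letters are not in the window.

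Over the 72 members whose promoter was matched by symbol, 55.6% held a CCAAT box, against 39.7% of 6219 genes in the file and 37.9% of 27025 promoters in all. TTTGAA was in 38.9%, against 12.3% of genes in the file and 18.1% of all promoters, and TTCGAA in 6.94%, against 2.49% and 1.57%. CCAAT together with either CHR form was in 33.3%, against 6.45% and 7.70%. The 20 genes with both that entered the co-variation had a median pair r of 0.05 as measured and 0.02 with the component removed. The 37 without both had 0.02 and 0.03.

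Part of the variation lay between mouse ids rather than between cells of one. The median share of variance between mouse ids, estimated from variance components of log2(CPM + 10), was 0.12 for the 67 genes (quartiles 0.04 and 0.18) and 0.07 for all 5727. It was highest for Kif1b (0.40), Cenpa (0.31), Aurka (0.30), Kif15, whose product helps hold the bipolar spindle (0.28), and Cdc20 (0.27). For Bub1b the estimate was 0, and estimates below 0 were set to 0. These shares include differences between groups, and centred on the group the medians were 0.06 and 0.00. Centring on the group lowers the estimate even where groups do not differ, and this was not corrected for. The fall is therefore no measure of the part of the groups.

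Among the 83 genes, Kif4, Cenpi and Ccnb3 are X-linked. Cenpi codes for a kinetochore protein and Kif4 for a chromokinesin. Cenpi had 48.7, 44.4 and 98.5 CPM in Let7d, 38.9, 53.8, 8.00 and 54.2 CPM in Let7e, 57.3, 20.1, 67.4 and 104 CPM in mi699a-5p, and 20.9, 47.8 and 31.1 CPM in NC. Xist stood at 0, 389 and 514 CPM in the same Let7d mouse ids, 368, 0, 5.23 and 0.251 CPM in Let7e, 315, 0, 0 and 319 CPM in mi699a-5p, and 0, 105 and 1.62 CPM in NC. The highest Cenpi values, in Let7d replicate 3 and mi699a-5p replicate 4, came with high Xist, though mi699a-5p replicate 3 had 67.4 CPM of Cenpi with Xist at 0. Kif4 was highest in Let7d replicate 2, at 104 CPM, but stood at 96.2 CPM in mi699a-5p replicate 3. Ccnb3, the gene of a B-type cyclin known from meiosis, was at 0.394 CPM in Let7d replicate 2 and at 20.5 CPM in NC replicate 1, where Xist was at 0. The part of embryo sex in these values was not tested.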

How the data were processed

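Single blastomeres were profiled by Smart-seq2 in 4 groups. The table the authors deposited holds whole-number read counts per gene and cell, and by its name it was filtered on CPM at a threshold not given. The submitters' processing notes name the aligner STAR and the build GRCm38.p6; the counting program and strand setting are not given in the sources used here. The labels describe 92 cells, 82 have a column, 10 were not analysed here, and columns left unmapped number 0. A pair of near-identical columns (chi-square per gene 1.05 over 6197 genes, next pair 28.7) agreed to about sampling noise and was counted as 1 sample, which left 81 cells. The next closest of 3321 pairs, at 28.7 and 29.8, crossed mouse ids. They set a cell of mi699a-5p replicate 4 beside cells of mi699a-5p replicate 3. The median of pairs within a mouse id was 73.8. Whether these cells share a source was not tested.

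Counts were summed per mouse id. The test was run in R 4.3.3 with edgeR 4.0.16 (TMM scaling, filterByExpr removing 0 genes, quasi-likelihood test, 1 fit of all 14 mouse ids, 10 residual degrees of freedom). Printed CPM are scaled by TMM per mouse id and by the total per cell. Reads per kb use exon length in GENCODE M21. The alternatives included DESeq2 1.42.0 and limma 3.58.1. Cell values were handled in Python with a pseudocount of 10 CPM. The code was tested on simulated data. Genes named are, per comparison, those with the 8 smallest p, the 10 highest per length and the highest of each role, the 10 highest and 5 lowest pairs and single genes by r, the 5 highest shares between mouse ids, X-linked members, and from further lists genes with the smallest p. Genes outside this rule, such as Aurkb or Ndc80, were named after their values were seen. The members and lists were chosen with earlier results of these data known.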

Additional observations from a re-analysis of the deposited data

Results flagged for a closer look

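The highest or lowest mouse id was compared with the other 3 of its group for the named genes in Let7e and mi699a-5p, the groups of 4, in 78 comparisons. In 6 of them 1 mouse id lay far from the rest by Dixon's criterion, and chance flags about 1 in 20. Birc5 stood at 506 CPM in Let7e replicate 1, with the next highest mouse id at 246 CPM. Bub1 was low in the same mouse id, at 93.0 CPM with the nearest at 118 CPM. Cenpl stood at 31.1 CPM in Let7e replicate 4, with the nearest at 15.3 CPM. Cenpw stood at 110 CPM in mi699a-5p replicate 1, which holds 1 of the 2 cells that stood apart, with the nearest at 42.9 CPM. Anapc7 at 448 CPM (nearest 293 CPM) and Kif23 at 435 CPM (nearest 313 CPM) were both high in mi699a-5p replicate 4.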

How the results depend on the processing

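Of the 83 genes 0 passed an adjusted p of 0.05 in each comparison under all 23 alternatives to the edgeR fit. They were RLE size factors, DESeq2, no filter on low counts, a mean of at least 20 CPM and an Xist covariate. The others were thinned cells, limma on mean log2 CPM, a replicate block, leaving out each mouse id and leaving out the 2 cells that stood apart. Among these alternatives, dropping the filter on low counts repeats the main fit, since filterByExpr removed 0 genes. The number with an unadjusted p under 0.05 ranged over these from 2 to 8 in Let7d, 1 to 6 in Let7e, 5 to 13 in mi699a-5p and 1 to 7 for any difference. The replicate block used only a number that mouse ids share, since those with the same number did not deviate together (median r 0.02 over 19 pairs). It gave 0 calls in each comparison, and median log2 fold changes of 0.08 for Let7d, 0.06 for Let7e and 0.06 for mi699a-5p. Leaving out 1 mouse id without the block moved the medians between 0.02 and 0.13 in Let7d, 0.03 and 0.17 in Let7e, and 0.02 and 0.18 in mi699a-5p. The sign of 1 named gene turned: Kif13b in Let7e had a log2 fold change of 0.0389 without NC replicate 3, with a range of -1.302 to 0.0389 without single mouse ids.

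The median r between members was 0.0192 with TMM factors per cell, 0.0721 for genes with a mean of at least 50 CPM, and 0.0185 without the 2 cells that stood apart. Without single mouse ids it ran from 0.0255 to 0.0342. The median share of variance between mouse ids was 0.0876 at a minimum of 5 CPM, 0.147 at 50 CPM and 0.0595 centred on the group, and 0.103 to 0.141 without single mouse ids. Centring on the group by itself lowers this share, by an amount not worked out. The causes were not tested. Leaving out the 2 cells and removing the shared component were chosen after seeing the data. Counting the near-identical columns as 2 leaves the sums per mouse id as they are, so it was run for the cell values only. Groups of 3 or 4 mouse ids with few cells each limit what could be detected.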
